A study of Mus musculus with 4 samples.

Results

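The transcripts described here were detected in the posterior but not in the anterior lobes of the postnatal day 7 mouse cerebellum. A probe of the Illumina MouseWG-6 v2.0 array, a short DNA sequence attached to many beads, was taken as such when its detection score was over 0.95 on both posterior arrays and 0.95 or less on both anterior arrays. The detection score is the share of negative control probes on the array that are dimmer than the probe, so that 1 minus the score is its detection p-value. Of the 45281 probes on the array 97 met this criterion. The probe of Tlx3, the homeobox gene on which the study is built, is one of them and was left out, so 96 probes of 95 gene symbols remained, which is 0.212% of the array. The samples were total RNA of the anterior lobes (n = 2) and of the posterior lobes (n = 2) of untreated Swiss mice at postnatal day 7, 1 array per sample. The labels name no allele and no agent for either lobe. The labels number the samples 1 and 2 within each lobe but do not say whether a number stands for 1 animal or a pool, so the spread between arrays may be partly technical. The probes were chosen by these scores, which come from the same signals as the difference between the lobes, so the differences below are a description, and no count of these probes past a threshold is a test of them.

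The cerebellar cortex is divided by the primary fissure into anterior and posterior lobes, and at the end of the first postnatal week its granule neuron progenitors still proliferate in the external granule layer. The surface is covered by the meninges, a sheet of fibroblasts and vessels that lies in the fissures too and produces matrix proteins and retinoic acid. A bulk sample holds RNA of all these cells, and fewer cells of a type and less RNA per cell cannot be told apart in it. All 4 arrays carried markers of cerebellar neurons, although not every marker looked up was detected. Of 20 granule cell markers with a probe 11 were detected on all 4 arrays and 7 on none. Of 19 Purkinje cell markers 16 were detected on all 4 and 3 on none. Zic1, a transcription factor of granule neurons, had a log2 signal between 13.15 and 13.42, Neurod1, a factor of differentiating granule neurons, one between 9.56 and 9.78, and Pcp2, a Purkinje cell gene, one between 13.91 and 14.08. On each array 46.5% to 47.6% of the probes were detected, with a median of 40 to 42 beads behind each probe.

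Most of the 96 probes were near the threshold and few were clear of it. The lowest intensity with a score over 0.95 was 139.8 and 116.9 for anterior replicates 1 and 2, and 134.2 and 134.4 for posterior replicates 1 and 2. The posterior-only probes had a median intensity of 130 and 108 on the anterior arrays and of 144 and 142 on the posterior arrays, so a typical one lay just under this intensity in the anterior and just over it in the posterior lobes. The median standard error over the beads of these probes was between 4.56 and 7.20 intensity units. On both posterior arrays 18 of the 96 lay above the lowest detected intensity by more than 2 bead standard errors, on 1 of the arrays 25, and on neither 53. Only 9 were beyond it by more than 2 bead standard errors on all 4 arrays. Between 1464 and 1645 probes of each array had an intensity within 5% of the lowest detected one.

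**Figure D1:**
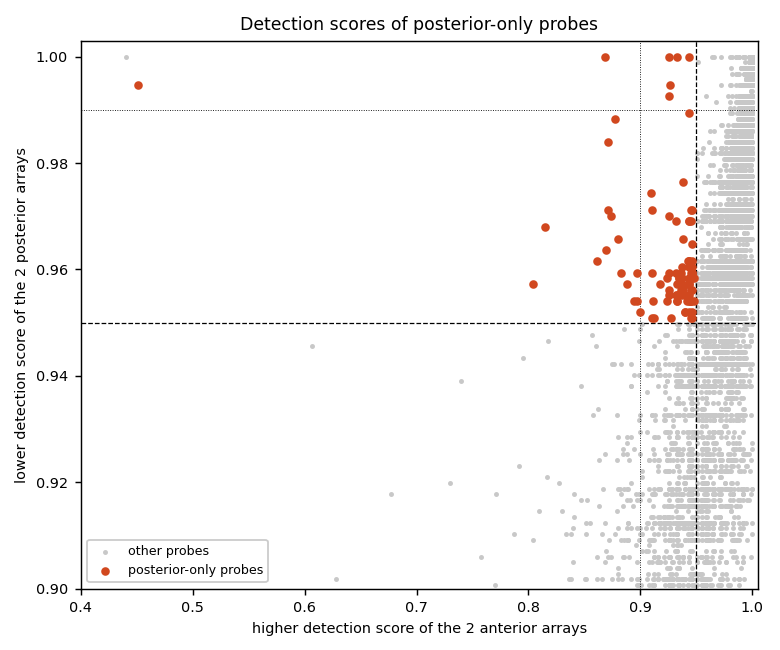
Detection scores of single probes, with the higher score of the 2 anterior arrays on the horizontal and the lower score of the 2 posterior arrays on the vertical axis, both as a share of negative controls dimmer than the probe. Dashed lines mark 0.95 and dotted lines 0.90 and 0.99, the grey point far to the left at the top is Tlx3, and the 96 posterior-only probes (red) crowd into the corner where both thresholds meet.

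By the scores alone 2 probes were clear of the threshold, with a score over 0.99 on both posterior arrays and of 0.90 or less on both anterior arrays. These were the probes of Lypd2 and Moxd1. By the signal, with the lowest posterior array at least 1.5-fold over the highest anterior array, 9 were clear, and by the 2 bead standard errors also 9, of which 5 are shared. The score reaches 1 for any signal above all negative controls, so it does not separate a bright posterior probe from a dim one. The 9 probes with a signal gap of 1.5-fold were those of F830002E14Rik, Slc47a1, Lypd2, Moxd1, Igfbp6, Dnajc5b, Cpz, Itgbl1 and Crabp2, and they are described first.

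The lowest posterior score, 0.951, was shared by 5 probes just inside the criterion, those of Exoc1, 0610038B21Rik, Dkkl1, Lama4 and Olfr1436. Exoc1, a subunit of the vesicle tethering complex, had scores of 0.947 and 0.912 on the anterior and 0.971 and 0.951 on the posterior arrays. Cep55, a protein of the last step of cell division, had 0.948 and 0.896 against 0.954 and 0.957. Just outside lay Cyp4f40, a cytochrome P450, with 0.926 and 0.942 against 0.94979 and 0.959, whose posterior replicate 1 missed the threshold, and Cd109, with 0.925 and 0.951 against 0.969 and 0.971, whose anterior replicate 2 was just detected. With the threshold set to a score of 0.99 on all arrays 50 probes met the criterion, and 7 of them are among the 96. When 1 array was ignored, 404 probes met the rest of the criterion without anterior replicate 1, 278 without anterior replicate 2, 353 without posterior replicate 1 and 265 without posterior replicate 2.

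The clear probes carry the differences. On the log2 scale of the quantile-normalized intensities the difference, posterior minus anterior mean, ran from 0.090 to 3.83 over the 96 probes with a median of 0.24, against a median of 0.0010 over all probes of the array. It was above 1 for 5 probes, between 0.5 and 1 for 12 and under 0.5 for 79. On this normalized scale both posterior arrays were brighter than both anterior arrays for all 96. The criterion nearly fixes this order, and 18.9% of all probes on the array showed it. In the raw intensities it did not hold for every probe. Exoc1 had 139 on anterior replicate 1 and 134.8 on posterior replicate 2, and Cep55 had 139.2 on anterior replicate 1 and 134.5 on posterior replicate 1. Since none of the anterior signals was detected, each fold is a bound, the posterior mean set against the anterior mean of the higher of the signal of the probe and the lowest detected signal of that array. By this bound 9 of the 96 were at least 1.5-fold higher, against 0.649% of all probes, 38 were between 1.1-fold and 1.5-fold and 49 at 1.1-fold or less. The rule chose them by the same signals, so nothing is read from these counts.

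**Figure D2:**
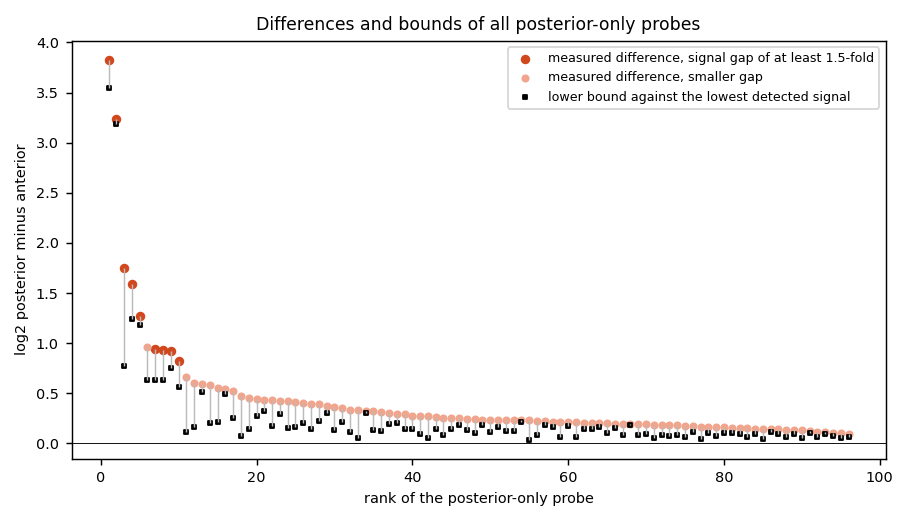
All 96 posterior-only probes in the order of their difference, with the log2 difference, posterior minus anterior, on the vertical axis. Circles are measured differences of group means (dark for the 9 with a signal gap of at least 1.5-fold), squares are the lower bounds against the lowest detected signal, and the bounds lie below the measured differences.

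Of the genes with a posterior-only probe 85 had an identifier in RefSeq, and 59 had a promoter window in its table for the build GRCm38.p6, from 250 bases before to 50 bases after a transcription start, 85 windows in all. Among the 9 clear probes 4 genes had one. These windows are shown because they belong to the genes with the largest measured gap between the lobes. Capitals mark the letters of any motif searched, TAATCC of Otx2, AGATAA of Gata6, CCGGAA of Fli1, CACGTG of Usf1 and ATGCAAAT of Pou2f1, on both strands.
Moxd1, chr10:24223267-24223566, plus strand: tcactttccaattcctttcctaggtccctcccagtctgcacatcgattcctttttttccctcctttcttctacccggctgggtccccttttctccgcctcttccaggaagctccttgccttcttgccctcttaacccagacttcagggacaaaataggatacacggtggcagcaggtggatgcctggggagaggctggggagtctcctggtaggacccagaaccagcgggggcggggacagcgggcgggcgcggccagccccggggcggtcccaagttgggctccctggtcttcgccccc
Igfbp6, chr15:102143936-102144235, plus strand: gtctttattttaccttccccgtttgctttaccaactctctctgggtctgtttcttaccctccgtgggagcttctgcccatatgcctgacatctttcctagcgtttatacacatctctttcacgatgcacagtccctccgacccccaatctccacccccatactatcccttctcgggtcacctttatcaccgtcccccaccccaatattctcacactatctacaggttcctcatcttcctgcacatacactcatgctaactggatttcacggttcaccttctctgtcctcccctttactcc
Cpz, chr5:35525577-35525876, minus strand: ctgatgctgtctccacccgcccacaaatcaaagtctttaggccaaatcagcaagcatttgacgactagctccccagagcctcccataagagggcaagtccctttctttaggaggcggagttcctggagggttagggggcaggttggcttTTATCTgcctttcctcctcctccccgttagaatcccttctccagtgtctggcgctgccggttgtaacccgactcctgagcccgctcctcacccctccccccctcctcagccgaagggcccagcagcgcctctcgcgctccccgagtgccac
Itgbl1, chr14:123659890-123660189, plus strand: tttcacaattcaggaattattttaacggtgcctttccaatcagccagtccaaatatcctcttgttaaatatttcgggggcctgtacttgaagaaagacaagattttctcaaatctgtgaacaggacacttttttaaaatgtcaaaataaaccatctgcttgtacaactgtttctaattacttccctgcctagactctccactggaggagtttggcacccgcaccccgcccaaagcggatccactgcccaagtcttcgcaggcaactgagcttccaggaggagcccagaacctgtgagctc
The only match in these windows was 1 of TTATCT, the reverse strand of the Gata6 motif, upstream of Cpz. Over the 85 windows TAATCC was in 5.88%, against 7.06% of the 32851 windows of the table, AGATAA in 7.06% against 11.2%, CCGGAA in 25.9% against 14.9%, CACGTG in 9.41% against 7.15% and ATGCAAAT in 3.53% against 1.74%. The windows of genes with posterior-only probes had a median GC content of 56.3%, against 52.7% in the table. A gene can have several overlapping windows, and the matches are a description of letters.

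The brightest of the posterior-only probes was that of F830002E14Rik (ILMN_1215076), a transcript with a RIKEN clone name that has no entry under this name in the RefSeq gene table. Its intensity was 128 and 87.4 on the anterior arrays (replicates 1 and 2) and 1847 and 1226 on the posterior arrays. Its anterior log2 signal stood at 6.74 ± 0.24 (SD, n = 2 arrays) and its posterior one at 10.57 ± 0.46, which makes it at least 11.7-fold higher. Neither posterior array came near the anterior ones, and no other probe on the array has this symbol.

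Slc47a1, listed on the array as 1300013J15Rik, exports organic cations from cells in exchange for protons. Its probe ILMN_2849016 had an intensity of 130 and 115 in the anterior and of 871 and 1571 in the posterior lobes, with scores of 0.933 and 0.943 on the anterior arrays. The posterior signal was at least 9.08-fold higher, with its arrays 0.78 apart on the log2 scale. The other Slc47a1 probe (ILMN_2749842) was dimmer, with 90.2 and 71.2 in the anterior and 122 and 218 in the posterior lobes, and was detected on posterior replicate 2 alone. Both probes thus had their highest signal on the array of posterior replicate 2.

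Lypd2 belongs to the family of small LY6 and PLAUR domain proteins of the cell surface. Its probe was the dimmest of the 96 in the anterior lobes, where its intensity of 73.4 and 58.9 was exceeded by most of the negative controls (scores of 0.451 and 0.134). The posterior arrays gave 200.1 and 244, signals that averaged 7.79 ± 0.20 (SD, n = 2 arrays) on the log2 scale. Against the lowest detected signal this is at least 1.71-fold, a bound far below the measured difference of 1.75 on the log2 scale because the anterior signal lay deep in the background.

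Moxd1, a copper monooxygenase related to dopamine beta-hydroxylase, had a posterior-only probe (ILMN_2737390) and a brighter one. The posterior-only probe had intensities of 100.3 and 101 in the anterior and 264 and 353 in the posterior lobes, at least 2.36-fold higher. The brighter probe (ILMN_2977492) was detected on all 4 arrays, with 155 and 151 against 753 and 808. Its log2 difference of 2.34 was larger than the 1.59 of the posterior-only probe, and Moxd1 transcript was therefore measurable in the anterior lobes, although faintly.

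Igfbp6, a secreted protein that binds insulin-like growth factors with a preference for Igf2, had intensities of 126 and 113 in the anterior lobes, just short of detection with scores of 0.917 and 0.933. On the posterior arrays it reached 259 and 328, with scores of 1 on both, and was at least 2.26-fold higher. Cpz, a carboxypeptidase with a frizzled-like domain that is secreted into the matrix, had 96.2 and 111 in the anterior and 200 and 203 in the posterior lobes, where the arrays differed by less than their bead standard errors of 10.7 and 8.34 units. It was at least 1.55-fold higher. In both genes the posterior arrays stood clear of the anterior arrays, and each of them has a single probe on the array.

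Itgbl1, a secreted protein with integrin beta-like repeats, had a posterior-only probe (ILMN_2636424) with 116 and 111 in the anterior and 198 and 240.4 in the posterior lobes, at least 1.68-fold higher. Its other probe (ILMN_2421146) gave another picture. It was detected on all 4 arrays, with 555 and 485 in the anterior and 551 and 593 in the posterior lobes, a log2 difference of 0.17. The lobes were thus close on the brighter probe and apart on the dim one.

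Crabp2, which carries retinoic acid to its nuclear receptors, had intensities of 116 and 99.6 in the anterior and of 171 and 217 in the posterior lobes, at least 1.48-fold higher. Dnajc5b, a cysteine string protein related to the synaptic vesicle chaperone Dnajc5, had 103 and 102 against 184 and 220 and was at least 1.55-fold higher. For each of these genes this was the only probe. Usf1, a basic helix-loop-helix factor that binds E boxes, missed the signal gap of 1.5-fold because its posterior arrays lay 0.80 apart on the log2 scale, the widest gap among the 96. Its intensities were 123 and 85.5 in the anterior and 264 and 155 in the posterior lobes. A brighter Usf1 probe (ILMN_1254639), detected on all 4 arrays, had 243 and 135 against 590 and 358. In both probes and both lobes the array of replicate 1 was the brighter.

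**Figure D3:**
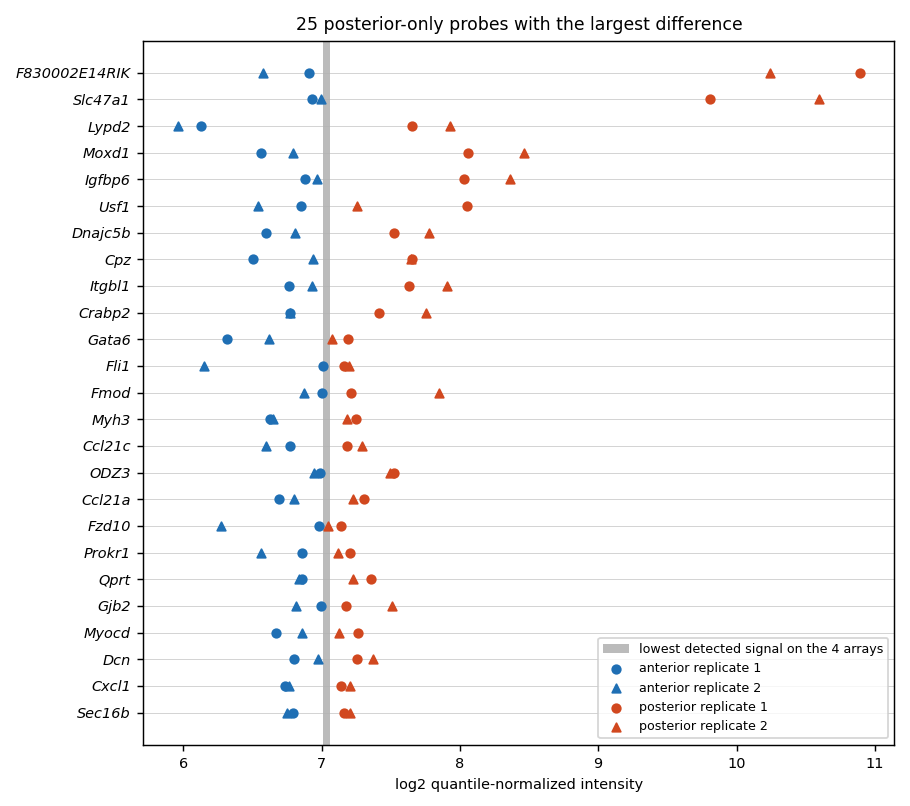
Log2 quantile-normalized intensity of the 25 posterior-only probes with the largest difference on each of the 4 arrays (blue for anterior, red for posterior, circles for replicate 1 and triangles for replicate 2). The grey band spans the lowest detected signal of the arrays, and from Gata6 downwards most points lie within about 1 unit of it.

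The transcription factors next in rank had small differences. Gata6, a zinc finger factor of mesoderm and smooth muscle, had intensities of 84.2 and 90.2 in the anterior and of 146 and 137 in the posterior lobes, at least 1.08-fold higher. Fli1, an ETS factor of endothelial and blood cells, was just short of detection on anterior replicate 1 with 138 and far below it on anterior replicate 2 with 66.7, while the posterior arrays gave 144 and 149.5. Its order between the lobes thus rests on a narrow gap to 1 anterior array. Fzd10, a Wnt receptor, showed the same form, with 135.1 and 72.1 in the anterior and 142 and 135.1 in the posterior lobes. Its brighter probe (ILMN_2976821) was detected throughout, with 526 and 330.1 against 590.2 and 586.

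Matrix proteins of fibroblasts were found further down. Fmod, a small leucine-rich proteoglycan that shapes collagen fibrils, had 137 and 106 in the anterior and 149 and 230.5 in the posterior lobes, at least 1.43-fold higher, with posterior replicate 2 well above the other arrays. The other Fmod probe was detected on no array. Dcn, the related proteoglycan decorin, had a posterior-only probe (ILMN_1254458) with 118.5 and 114 against 153 and 167. The abundant Dcn transcript was read by ILMN_2747959, with 3756 and 3073 in the anterior and 6334 and 6554 in the posterior lobes, so decorin was well expressed in both lobes.

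Genes of muscle and of chemokines had dim signals as well. Myh3, the embryonic skeletal myosin heavy chain, had 105.5 and 91.9 in the anterior and 152 and 148 in the posterior lobes. Myh8, the perinatal form, had 128 and 116 against 149 and 145 on its posterior-only probe and 305 and 216 against 404 and 420.5 on a brighter one (ILMN_1223735). Myocd, a coactivator of smooth muscle genes, had 109 and 106 against 154 and 142, and 2 brighter probes of it were detected on all 4 arrays with log2 differences of 0.83 and 0.93. The lymphoid chemokine genes Ccl21c (117 and 88.9 against 146 and 159) and Ccl21a (109.9 and 101.5 against 158 and 153) are near-identical copies, so their probes may read the same transcript. Cxcl1, a chemokine that attracts neutrophils, had 114 and 99.5 against 142 and 149.9.

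The remaining probes of the first 25 were those of a teneurin, of receptors and of enzymes. Odz3, an array symbol shared in the gene table by teneurin genes, had 136 and 112 in the anterior and 184 and 181 in the posterior lobes, at least 1.40-fold higher. A brighter probe of it (ILMN_2741231) was on the other side, with 520.5 and 455 against 425 and 412. Prokr1, a receptor for prokineticins, had 124 and 86.9 against 148 and 142, Qprt, an enzyme of NAD synthesis from quinolinate, 124 and 103.9 against 163.5 and 152, and Sec16b, a protein of endoplasmic reticulum exit sites, 118 and 98.3 against 144 and 149.8. Gjb2, the gap junction protein connexin 26, which fibroblasts of the meninges carry, had 137 and 103 against 145 and 184, and its bright probe (ILMN_2999627) had 1050.2 and 725 against 1257 and 1704. None of these posterior-only probes exceeded a bound of 1.5-fold.

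Beyond the first 25 the differences were 0.40 or less on the log2 scale. Among these 71 probes were those of guidance and growth factor genes (Epha5, Slit2, Tgfa), of receptors (Galr1, Gpr182 with a pair of probes, Adgra2, Tlr4, Clec4n, Treml4), of matrix genes (Lama4, Emilin2, Sbspon, Adamts13), of transcription factors (Pou2f1, Neurod4, Evx1, Fosl2) and of olfactory receptors (Olfr1443, Olfr725, Olfr1331, Olfr1195, Olfr1436). Others read genes used by every cell, such as Ndufc2, a subunit of respiratory complex I, Rrm1, a subunit of ribonucleotide reductase, Exoc1 and Commd2. The 5 smallest differences were those of 1810024B03Rik (0.12), Septin12 (0.11), Olfr1436 (0.10), Tgfa (0.10) and 1700016D06Rik (0.090). For 1700016D06Rik the intensities were 136 and 116 in the anterior and 135 and 139.8 in the posterior lobes, so that its raw signal on anterior replicate 1 exceeded that on posterior replicate 1 and only the differing thresholds of the arrays set them apart. Grouped by the first letters of their symbols, 5.26% of the 95 are olfactory receptors, against 4.20% of all symbols on the array, and 24.2% are RIKEN, LOC or other predicted names, against 39.8%. Matrix proteins make up 4.21% against 0.512%, immune genes 6.32% against 2.09% (with Igfbp6 among them by its letters alone), other receptors and ion channels 5.26% against 1.53%, transcription factors 3.16% against 0.972%, muscle, keratin and blood proteins 2.11% against 0.421%, and transporters 1.05% against 1.59%. The letters also leave out genes that this text names by such roles. Fmod and Emilin2 are not counted as matrix proteins, nor Usf1, Fli1, Fosl2 and Evx1 as transcription factors. Prokr1 and Galr1 are not counted as receptors. Slc47a1 and Sbspon are counted under the older names on the array, among the predicted ones. These shares are thus a description of symbols, not of gene functions, and were not tested.

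For 27 symbols detection in the posterior lobes only did not hold for every probe of the symbol. Of the 95 symbols 51 had another probe, 105 in all. For 27 of them another probe was detected on all 4 arrays, so a transcript read under that symbol was detected in both lobes. For 20 all other probes were detected on no array. Whether the probes of a symbol read the same transcript was not tested. The 42 other probes that were detected on all 4 arrays had log2 differences between -0.41 and 2.34 with a median of 0.16, with 30 above and 12 below 0. The signals of the same samples chose the genes, so these values carry no test.

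The brighter probes fell into different patterns. For 13 genes, among them Moxd1, Usf1, Gjb2, Myocd, Dcn, Slit2 and Myh8, a brighter probe had a positive difference at least as large as that of the posterior-only probe. Slit2, a repellent of growing axons, had 116 and 100.8 in the anterior and 143 and 147 in the posterior lobes on the posterior-only probe, and its brightest probe (ILMN_1253797) had 1129 and 1015 against 1425 and 1525, a log2 difference of 0.48. The reverse was seen for Scn3b, a beta subunit of sodium channels, whose 3 brighter probes had differences of -0.29, -0.30 and -0.30 against 0.26 on the posterior-only probe. Fbxw7, which marks cyclin E and Notch for degradation, had -0.41 on its brightest probe (ILMN_2681824, 2341 and 2455 against 1753 and 1818), and 3 of the 4 brighter probes of Dtna, dystrobrevin alpha, lay between -0.39 and -0.23. In Scn3b all brighter probes were thus opposite in sign to the posterior-only probe, while Fbxw7 and Dtna each had 1 brighter probe above 0 as well. With every probe counted, 68 of the 95 symbols had no probe that was detected on both anterior arrays. Of these 68 symbols, 44 had no other probe, so the choice of the probes fixed this outcome for them. Among the 51 symbols with another probe, 27 had one that was detected on both anterior arrays. For 20 of the 51 all other probes were detected on no array.

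**Figure D4:**
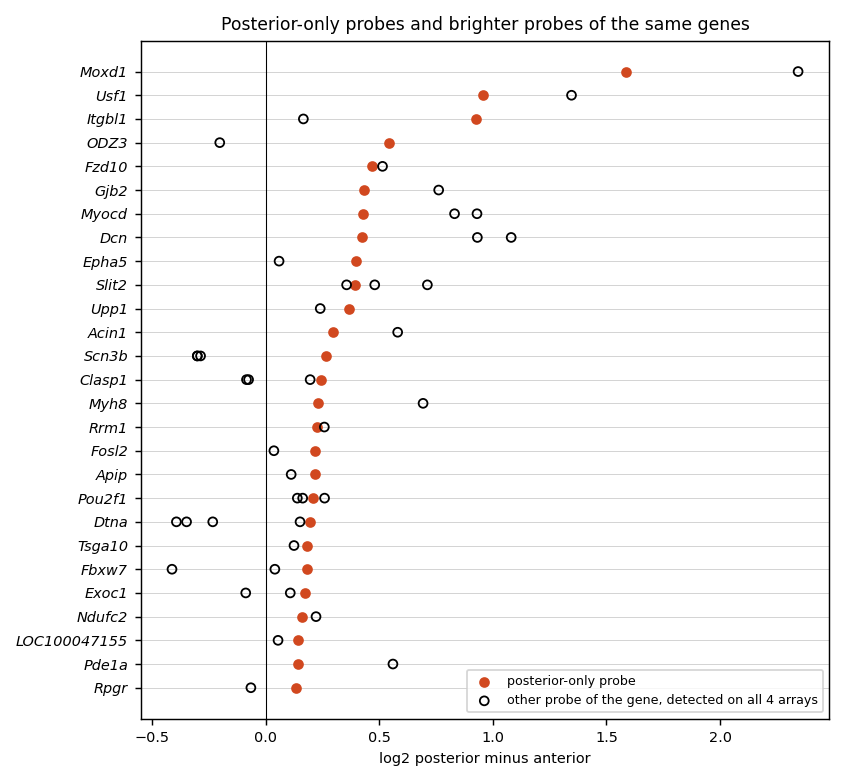
Log2 difference, posterior minus anterior, of the posterior-only probe (red) and of the other probes of the same gene that were detected on all 4 arrays (open circles), for the 27 symbols that have such a probe. Moxd1, Usf1, Myocd and Dcn lie to the right on their brighter probes too, while those of Scn3b and most of those of Dtna lie left of 0.

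Lists of cell type markers were set against the 96 probes. The list of meninges and fibroblasts, with 39 genes on the array, held 4 genes with a posterior-only probe, namely Moxd1, Crabp2, Fmod and Dcn. The list was written with earlier results of these arrays known, among them those of Moxd1 and Ptgds, so it is not independent evidence. Of its 27 genes tested on a probe outside the 96, with the other probes of Moxd1 and Dcn among them, 22 had a higher mean in the posterior lobes, 14 passed the study criterion (more than 1.2-fold, and by limma a p under 0.05 before adjustment) with a higher posterior signal, and none was lower by it. The same criterion was met with a higher posterior signal by 3.3% of the 21726 probes tested. The median log2 difference of the 27 was 0.47. After adjustment over all probes tested 4 had a p under 0.05 by limma, Moxd1, Ptgds, Ogn and Dcn. Of all probes tested 0.0736% were higher by this measure. Since the list was written with results of these arrays known, these counts are no test of it and nothing is read from them.

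Ogn, the small leucine-rich proteoglycan osteoglycin, rose by 2.00 on the log2 scale, from 7.97 ± 0.059 (SD, n = 2 arrays) to 9.97 ± 0.33 (adjusted p = 0.035 by limma). Mgp, matrix Gla protein, had a difference of 2.05 but an adjusted p of 0.055 by limma. Aldh1a2, the enzyme that makes retinoic acid in the meninges, had log2 signals of 7.66 ± 0.23 and 8.33 ± 0.45 (SD, n = 2 arrays), and Bgn, Cyp1b1 and Cxcl12 had differences of -0.12, -0.020 and -0.22. The summed quantile-normalized intensity of the 27 genes was 25212 and 25312 on the anterior and 35592 and 39424 on the posterior arrays. Of the 39 genes 9 were detected on no array. The part of meningeal tissue in the posterior-only probes was not tested.

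**Figure D5:**
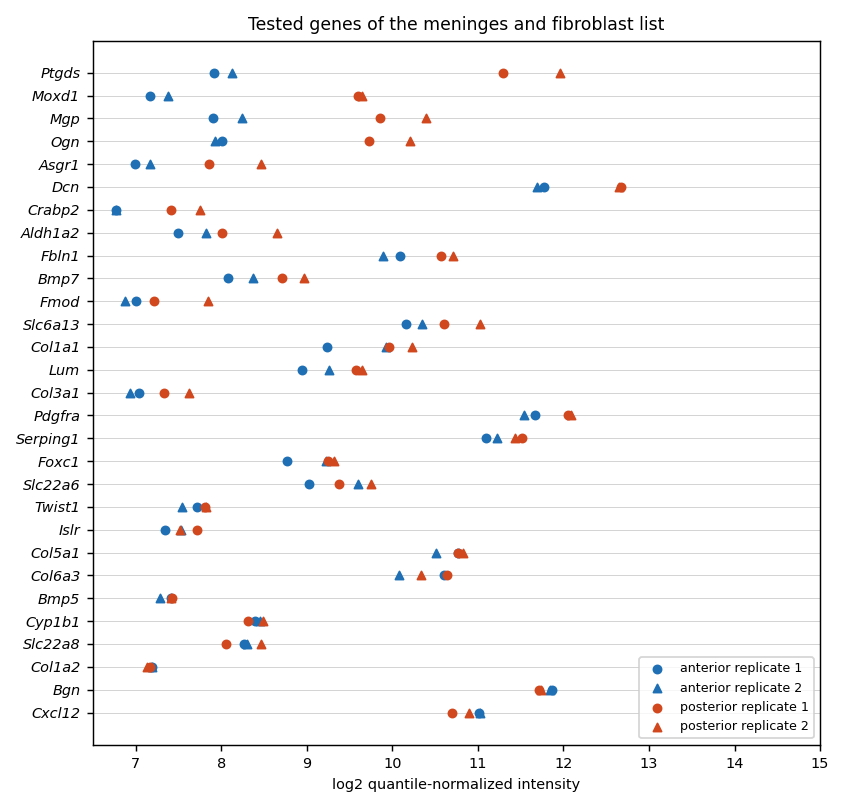
Log2 quantile-normalized intensity on each array of the 29 tested genes of the meninges and fibroblast list, 1 probe per gene (the brightest that was tested), ordered by the difference between the lobes. Crabp2 and Fmod are shown by their posterior-only probes, and Moxd1 and Dcn by their brighter probes, and the upper rows hold the genes whose posterior arrays (red) stand right of both anterior arrays (blue).

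No other list held more than 2 genes with a posterior-only probe. The lists of granule cells, Purkinje cells, unipolar brush cells, inhibitory interneurons, brain stem neurons, choroid plexus, ependyma, vessels, microglia and blood, oligodendrocytes and astroglia held 0, as did neuropeptides and hormones. The posterior-only probes are 0.212% of the array, so short lists can hold 0 for their length alone, and nothing is read from these counts. Fli1, Myocd, Tlr4 and Clec4n, which have posterior-only probes, are not on the vessel or microglia and blood lists. The list of tissues next to the brain held Myh3 and Myh8, while 14 of its 27 genes were detected on no array. Of its genes 7 were tested on a probe that was not posterior-only, with the brighter probe of Myh8 among them. Their summed quantile-normalized intensity was 6863 and 7098 on the anterior and 7296 and 7156 on the posterior arrays. Among the 69 genes on the array of a list of retinoic acid, Wnt, Fgf and Bmp signalling, which does not hold Fzd10, Crabp2 had a posterior-only probe. Of the 34 genes on the brain stem list 26 were detected on no array, and the 6 tested had a median difference of 0.040. The medians of the lists other than the meninges lay between -0.45 for oligodendrocytes and 0.14 for the tissues next to the brain. The summed quantile-normalized intensity of the oligodendrocyte list was 136893 and 131796 on the anterior and 98756 and 93080 on the posterior arrays. Of the oligodendrocyte list 11 of 17 genes tested were lower by the study criterion. The 1 higher gene, Pdgfra, is also on the meninges list and among its 14 higher genes. Of the ependymal list 9 of 14 were lower and 0 higher, with a median of -0.41. The share of all probes tested that were lower by this criterion is not given here.

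In the fit over all probes 38 of the 96, or 39.6%, lay past the same 1.2-fold criterion with a higher posterior signal, against 3.3% of all probes tested, and 3 (F830002E14Rik, Slc47a1 and Lypd2) lay past an adjusted p of 0.05 by limma, against 0.0736%. All 96 entered the fit, which required detection on any 2 of the 4 arrays and which they met through the posterior arrays. The probes were chosen on this same contrast, so the counts test nothing about them and nothing is read from them. Without anterior replicate 1 20 of the 96 lay past the adjusted p, against 5.95% of all probes then tested, and without anterior replicate 2 10 did, against 0.505%. In these fits the lone anterior array is assumed to vary like the posterior arrays.

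The criterion asked both arrays of a lobe to lie on the same side of the threshold, so the agreement of the replicates is partly fixed by the choice and is described without a test. The differences, replicate 2 minus replicate 1 over both lobes, ran from -0.56 for Usf1 to 0.42 for Slc47a1 on the log2 scale, with a median of -0.0054. F830002E14Rik had -0.49 and was thus brighter on the arrays of replicate 1, while Moxd1 had 0.32. On the posterior arrays alone 5730409E04Rik, with intensities of 131 and 114 against 185 and 140.9, had the fifth widest gap, 0.42 on the log2 scale, after Usf1, Slc47a1, F830002E14Rik (0.65) and Fmod (0.64).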

How the data were processed

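Anterior and posterior lobes were each profiled as total RNA from 2 samples on Illumina MouseWG-6 v2.0 arrays. The authors deposited mean bead intensity, bead SD and bead number per probe as GenomeStudio 1.9.0 wrote them, with normalization off and no background subtraction, and a detection score as a fraction from 0 to 1. The 16 other columns were not used.

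In R 4.3.3 the 4 arrays were brought to a common distribution by quantile normalization, and log2 values were taken after a floor of 1. Probes detected on at least 2 of 4 arrays were fitted, posterior minus anterior, with limma 3.58.1 (eBayes with an intensity trend, Benjamini-Hochberg adjustment). Replicate 2 minus replicate 1 was fitted with the lobe in the model, and its p-values are not given, since the choice of the probes used the agreement of replicates. The small number of arrays limits the precision, as does the spread over beads for dim probes. Gene symbols were matched to RefSeq (GRCm38.p6), with 74 of the 96 probes matched by symbol, 12 by an older name and 10 not matched and kept under the name on the array. An older name shared by several genes was not matched.

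The members, lists, motifs and tests were chosen with earlier results of these data known. Named with values are the 25 probes with the largest difference, the members of the lists, the 5 smallest differences, the 5 widest gaps between the posterior arrays, and the probes nearest the threshold on either side, of which some are given. The other genes named, their brighter probes and the motifs were chosen after their values had been seen. The marker lists with 1 probe per gene (the brightest tested) are described by counts and medians.

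Same-numbered samples deviated together from their lobe means (r = 0.46 over 21726 probes). With 2 pairs and labels that do not say what a number shares, the replicate block was kept as an alternative. Other alternatives were cyclic loess, leaving the arrays unnormalized, equal 75th percentiles, normexp background correction, a floor of 32, other detection thresholds, no filter, no trend, the methods' t-test and leaving out each array.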

Additional observations from a re-analysis of the deposited data

How the results depend on the processing

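All 96 probes kept a higher posterior mean under each normalization, the floor of 32 and without any of the arrays, an order that their choice nearly fixes. Their number, 96 at a score of 0.95, was 50 at 0.99, 141 at 0.90 and 2 with a posterior score over 0.99 and an anterior score of 0.90 or less. It was between 265 and 404 without 1 array, since fewer arrays have to meet the criterion. The 2 probes clear by their scores were 9 by the signal gap of 1.5-fold and 9 by 2 bead standard errors, a definition added after the data had been seen, and without 1 array they were between 4 and 42 (42 without anterior replicate 1, 4 without anterior replicate 2, 6 without posterior replicate 1 and 8 without posterior replicate 2). The median log2 difference of 0.24 was 0.31 with the shift to a common 75th percentile, where the median of all probes moved to 0.049, and 0.33 with normexp correction. The number at least 1.5-fold higher by the bound stayed between 8 and 12.

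The 38 probes past the study criterion (3.3% of all probes tested) were 66 with the shift to a common 75th percentile (4.5%) and 21 with the methods' t-test (1.35%). The 3 past the adjusted p (0.0736%) were 8 without normalization (0.226%), 5 without a filter (0.0751%) and 0 with the methods' t-test (0 of all probes tested), and between 10 and 20 without 1 anterior array, where the share of all probes was 0.505% to 5.95%. With the replicate block 15 passed the adjusted p (1.29%) and 43 the study criterion (5.79%). The cause of these changes was not tested. Without a posterior array no value could be given, because the filter then removes all 96. Of the differences of the 9 clear probes, 67 of 81 values under the alternatives stayed within the spread between replicates. The other 14 moved beyond it and kept their sign. With normexp correction each of the 9 differences moved and became larger, as for Lypd2 from 1.75 to 2.62, so their sizes depend on the background correction. Signals near the lowest detected intensity limit what can be said of all but the brightest probes.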
